A study of Mus musculus with 9 samples.

Results

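Primary mouse embryonic neural stem cells of cultures labelled 30 August were compared with those labelled 3 September, across all expressed genes. The members were chosen by the dates in the library names, 3 libraries for each date, 6 of the 9 libraries of the series. At each date 1 library came from cells given the non-targeting short hairpin RNA shNT, 1 from cells given sh900 and 1 from cells given sh902, both aimed at Phf2, so the dates could be paired by hairpin. Short hairpin RNAs are processed to small RNAs that deplete a matching transcript, and Phf2 belongs to a family of histone demethylases. All groups shared the tissue label brain subventricular zone, growth on laminin in proliferation medium with FGF at 10 ng/mL and EGF at 20 ng/mL, and harvest 3 days after hairpin treatment. No library was free of a hairpin. The labels do not say what the dates mark, nor whether the dates stand for separate animals, dissections or thaws, and p-values therefore describe only how much these libraries vary, technical variation included. Another 3 libraries, 1 for each hairpin, carry no date and are given as values only.

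Neural stem cells keep the positional code of the embryonic brain region they were taken from. Transcription factors such as EMX2 and the DLX proteins mark the forebrain, EN2 the midbrain and anterior hindbrain, and HOX proteins the hindbrain and spinal cord. In medium with FGF and EGF the cells divide, and they can also leave the cycle, enter quiescence, or start toward astrocytes, oligodendrocytes or neurons. Nestin, vimentin and SOX2 mark the stem cell state, GFAP and aquaporin 4 astrocytes, PDGFRA and SOX10 the oligodendrocyte lineage, and doublecortin young neurons.

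Levels are given as CPM, the count of a gene scaled to the library total. Library totals of the 6 dated libraries ran from 23212472 to 27861367 estimated counts, the 10 most abundant genes took 8.01% to 10.3% of counts, and mitochondrially encoded genes 1.43% to 1.89%. At this depth 3 counts correspond to 0.108 to 0.129 CPM, and intervals or floors drawn from counts cover counting error only. The stem cell markers Nes, Sox2, Vim, Fabp7 and Slc1a3 were all above 100 CPM in each dated library, with Sox2 between 167 and 352 CPM. Other markers read with them were lower, with Pax6 at 30.3 to 84.9, Msi1 at 46.7 to 98.0 and Hes1 at 17.2 to 36.4 CPM. Hes5 ran from under 100 CPM in its lowest dated library to 284 CPM in its highest. Phf2 stood at 51.6 CPM with shNT, 13.5 with sh900 and 17.0 with sh902 on 30 August, and at 49.5, 26.8 and 29.2 CPM in the same order on 3 September. It was lower with either Phf2 hairpin at both dates, and its date difference was not called (log2 difference -0.49 ± 0.24, adjusted p = 0.23). The pairs were unequal, with a log2 ratio of 0.13 with shNT, -0.84 with sh900 and -0.76 with sh902. The Phf2 level measured with either Phf2 hairpin was thus lower on 30 August. Fitted for the Phf2 hairpins alone, this difference was not called either (-0.80, adjusted p = 0.129 by edgeR's quasi-likelihood test). Emx2, Gfap, Aqp4, Pdgfra, Mki67, Top2a, Hmga2 and Phf2 have an annotated gene on the opposite strand within their span, and without a stated strand reads of both cannot be told apart. The male-specific genes Ddx3y, Eif2s3y and Kdm5d had 0 counts in all 9 libraries.

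Date differences are log2 ratios of 30 August over 3 September with their standard error, fitted with the hairpin as a block, and a gene was called at a Benjamini-Hochberg adjusted p under 0.05 by the quasi-likelihood test of edgeR. Of 16807 genes tested, 1960 (11.7%) were called. On 30 August 796 (4.74%) were higher and 1164 (6.93%) lower. The median over all genes was -0.01. The number of calls depended on which libraries entered, most on those with sh900: 1 gene was called without the sh900 library of 3 September and 25 without that of 30 August, while 259 and 435 were called without the sh902 library of 30 August and of 3 September. Without the shNT library of 3 September the count was 2949. Of the 1960 genes, 1953 and 1959 kept their direction without the sh900 library of 3 September and of 30 August. These fits share all their libraries with the fit that called the genes, so the kept direction is no separate check. They have fewer residual degrees of freedom, as does the fit without the shNT library. Leaving out each library in turn moved Sparcl1 between -8.65 and -8.16, Dmrta2 between -4.47 and -4.27 and En2 between 3.02 and 3.45. Other named genes moved more, such as Postn between -9.97 and -5.92, Foxf2 between 3.93 and 6.78 and Hhip between -3.99 and -2.26. Of the 121 called genes that the naming rule picked, 0 were called without the 3 September sh900 library and 0 reversed in any fit run. The date groups did not overlap for 1803 genes (10.7%) higher and 3370 genes (20.1%) lower on 30 August. At least 2-fold differences of 1 direction in all 3 pairs were seen for 397 genes (2.36%) higher and 851 (5.06%) lower. All 3 pairs had the same sign for 4259 genes (25.3%) that were higher on 30 August and 4756 (28.3%) that were lower.

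Genes of the regional code differed between the dates. As a reference for the counts below, 4.74% of all genes tested were called higher on 30 August and 6.93% lower. Of the dorsal and ventral forebrain genes called, most were lower on 30 August, while En2, 3 Iroquois genes and several anterior Hox genes were higher. Of 15 dorsal forebrain genes measured among 24 listed, 6 were lower and 1 higher, with a median of -0.53. Of 15 ventral forebrain genes measured among 25, 9 were lower and 2 higher, with a median of -2.19. In each of these lists 9 genes were lower in all 3 pairs, and 4 dorsal and 3 ventral genes were higher in all 3. Of 18 midbrain, hindbrain and spinal cord genes measured among 36, 8 were higher and 2 lower, with a median of 1.48. Without the sh902 pair, 4 dorsal and 3 ventral genes were lower and 2 of the midbrain, hindbrain and spinal list higher. That fit, also given for later lists, called 68 higher and 189 lower of all 17122 genes. Without the sh900 pair 1 gene in total was called, so list counts are not given for it. In bulk RNA, fewer cells of a type and less RNA per cell cannot be told apart.

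Emx2, which patterns the caudal and medial cortex (chromosome 19, 59458372 to 59465357, plus strand, GRCm38), stood at 1.5, 2.58 and 1.5 CPM with shNT, sh900 and sh902 on 30 August and at 16, 23 and 23.1 CPM on 3 September. Within a date the hairpins differed far less than the dates did (-3.41 ± 0.29, adjusted p = 0.00322). Dmrta2, a regulator of cortical progenitors, was at 0.789, 0.969 and 1.28 CPM against 19.5, 20.1 and 27.6 CPM (-4.39 ± 0.26, adjusted p = 0.00164). Lhx2, a selector gene of cortex, was at 44.3, 19.7 and 20.6 CPM against 134, 113 and 91.9 CPM (-2.01 ± 0.21, adjusted p = 0.00563). For all 3 genes every 30 August library was below every 3 September library. Dmrta1 (-6.06) and the proneural gene Neurog2 (-3.81) were lower as well. Lef1, an effector of Wnt signalling, was the 1 higher dorsal member (3.10 ± 0.46, adjusted p = 0.013), at 3.27 CPM or less in every library.

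Among ventral forebrain genes, Meis2, a homeobox gene of the lateral ganglionic eminence, was at 22.4, 25.1 and 24.6 CPM on 30 August against 101, 123 and 125 CPM, close to equal across hairpins within each date (-2.19 ± 0.16, adjusted p = 0.00211). Dlx2, a driver of GABAergic fate, was at 0.752, 0.538 and 0.428 CPM against 25.3, 4.94 and 6.12 CPM (-3.98 ± 0.47, adjusted p = 0.00706). Dlx2 was thus highest in the shNT library of 3 September, and its lowest 3 September library was still above all of 30 August. Dlx1 (-4.55), Nkx2-2 (-4.42), Gsx2 (-4.27), Sp8 (-1.71), Nkx6-2 (-2.67) and Shh (-2.48) were also lower, although the Shh values of the dates overlapped. Nkx2-1, which marks the medial ganglionic eminence, had 0 counts in all 3 libraries of 30 August and 14, 14 and 7 on 3 September, and did not pass the expression filter. Set against a floor of 3 counts per library, it was at least 4.82-fold, 5.02-fold and 2.35-fold lower on 30 August. Six3 (1.26) and Zic1 (0.73) were the 2 higher ventral members. The forebrain genes Pax6 (-0.53, adjusted p = 0.16) and Otx2 (0.24, adjusted p = 0.547) were not called, and their dates overlapped.

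En2, which patterns the midbrain and cerebellum (chromosome 5, 28165694 to 28172166, plus strand), was at 79.7, 130 and 69.3 CPM on 30 August and at 9.28, 11.2 and 9.61 CPM on 3 September. Its 3 September values lay close together and all below 30 August (3.24 ± 0.22, adjusted p = 0.00205). Its relative En1 also had all 30 August libraries higher but was not called (1.21 ± 0.44, adjusted p = 0.124). The Iroquois gene Irx5 was at 27.7, 26.7 and 32.1 CPM against 3.80, 6.75 and 5.34 CPM (2.55 ± 0.24, adjusted p = 0.00441). Irx1 (2.86, adjusted p = 0.00474) and Irx2 (2.62, adjusted p = 0.00545) were higher to a similar degree. Hoxa5, a gene of cervical spinal cord and hindbrain (chromosome 6, 52201754 to 52204587, minus strand), was at 16.9, 25.7 and 4.24 CPM against 0.505, 0.463 and 0.388 CPM (4.92 ± 0.53, adjusted p = 0.00673). Hoxa4 (5.07) and Hoxa3 (4.29) were higher too. The models of Hoxa3, Hoxa4 and Hoxa5 overlap each other or an antisense gene, so their shares of reads are uncertain. The 2 lower members were Dbx2 (-3.26), a homeobox gene of the intermediate neural tube, and Hoxb2 (-3.33), which was under 1 CPM in every dated library.

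Barhl2, a homeobox gene of diencephalon and spinal cord that was on no list (chromosome 5, 106452523 to 106458166, minus strand), was at 31.9, 36.2 and 60.7 CPM on 30 August and 0.699, 1.35 and 1.12 CPM on 3 September (5.40 ± 0.28, adjusted p = 0.00164). Its undated libraries held 3.65, 6.36 and 9.41 CPM, between both dates.

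**Figure D1:**
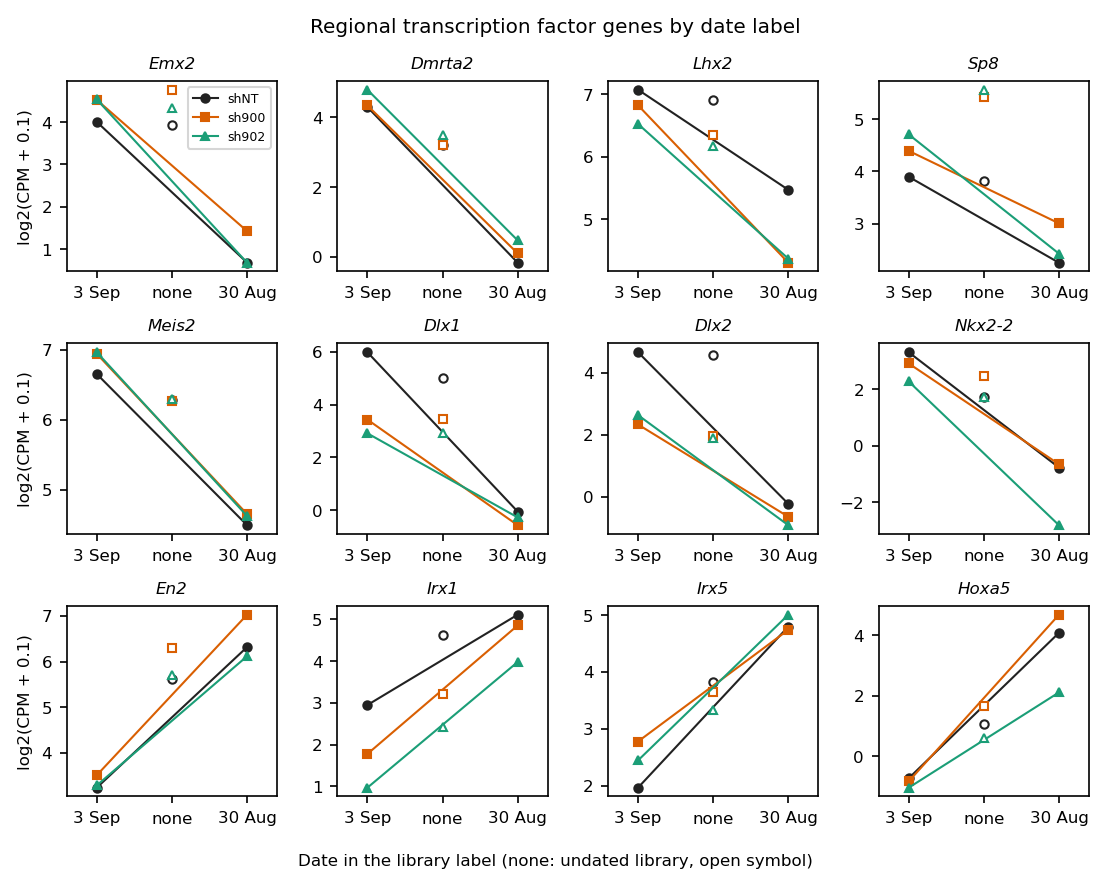
Levels of 12 regional transcription factor genes in the 9 libraries as log2(CPM + 0.1), with the date of the label on the x axis, filled symbols and lines for the dated pair of a hairpin and open symbols for the undated libraries, which are drawn in the middle for space only. The 8 forebrain genes slope down to 30 August and En2, Irx1, Irx5 and Hoxa5 slope up in each of the 3 hairpins, as with En2 at 69.3 to 130 against 9.28 to 11.2 CPM.

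Astrocyte and quiescence genes were lower on 30 August. Of 23 astrocyte genes measured among 24 listed, 12 were lower and 0 higher (median -1.42), beside 6.93% and 4.74% of all genes tested. Of 25 genes of quiescent neural stem cells, 12 were lower and 0 higher (median -1.38); several of them stand on both lists. Without the sh902 pair 8 and 9 were lower. The summed level of the astrocyte list was 6625, 4833 and 4583 CPM on 30 August against 24684, 15964 and 11340 CPM on 3 September. The sum was highest with shNT at both dates.

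Sparcl1, a secreted astrocyte protein that promotes synapse formation (chromosome 5, 104079111 to 104113733, minus strand), was at 1.13, 2.12 and 1.76 CPM on 30 August and at 640, 666 and 547 CPM on 3 September. It was the called gene with the most negative log2 difference among those named by the rule (-8.48 ± 0.31, adjusted p = 0.000535). Its undated libraries held 87.3, 113 and 91.6 CPM. The water channel gene Aqp4 was at 45.1, 4.92 and 12.1 CPM against 1540, 566 and 303 CPM (-5.42 ± 0.52, adjusted p = 0.009). The lipid carrier gene Apoe was at 641, 292 and 343 CPM against 7308, 3878 and 1894 CPM (-3.16 ± 0.30, adjusted p = 0.00414). For both, shNT was the highest library of its date. Clu (-4.34), the glutamate transporter gene Slc1a2 (-3.38) and the gap junction gene Gja1 (-3.67) were lower as well. Gfap, the intermediate filament gene of astrocytes, was at 8.57, 7.47 and 27.4 CPM against 1401, 789 and 357 CPM. These groups did not overlap, yet Gfap was not called over the 3 pairs (-5.92 ± 1.08, adjusted p = 0.062), with pairs of unequal size. Its difference was -4.99 with the Phf2 hairpins and -7.29 in the shNT pair, which is 1 library against 1. The glutamate transporter gene Slc1a3, which radial glia and stem cells also express, was not called (-0.62 ± 0.21, adjusted p = 0.106).

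Among quiescence genes, Scrg1 was at 2.07, 1.69 and 0.857 CPM against 63.1, 49.1 and 29.3 CPM (-4.87 ± 0.22, adjusted p = 0.00107). Ntsr2, a neurotensin receptor of astrocytes and quiescent stem cells, was at 5.37, 2.91 and 2.96 CPM against 82.7, 55.8 and 29.9 CPM (-3.77 ± 0.23, adjusted p = 0.00166). Within each date both genes were highest with shNT, and no date value overlapped the other date. Id4 (-3.14), which restrains stem cell activation, Hopx (-2.52) and the metallothioneins Mt1 (-2.4), Mt2 (-2.41) and Mt3 (-0.95) were also lower.

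The oligodendrocyte precursor and myelin genes that were called were lower on 30 August, while Olig2 was not called. Of 18 precursor genes, 7 were lower and 0 higher (median -0.85), beside 6.93% and 4.74% of all genes tested. Of 12 myelin genes measured among 19, 8 were lower and 0 higher (median -2.72). Sox10, which drives oligodendrocyte differentiation (chromosome 15, 79154908 to 79165240, minus strand), was at 0.225, 0.287 and 0.343 CPM on 30 August and 74.4, 32.8 and 12.5 CPM on 3 September (-6.74 ± 0.65, adjusted p = 0.00899). The growth factor receptor gene Pdgfra was at 10.9, 6.10 and 6.12 CPM against 271, 130 and 59.8 CPM (-4.05 ± 0.31, adjusted p = 0.00292). Myelin basic protein, Mbp, was at 0.789, 0.323 and 0.471 CPM against 24.0, 7.49 and 4.01 CPM (-4.15 ± 0.45, adjusted p = 0.00571). In all 3 genes the 3 September levels were highest with shNT and lowest with sh902. Gpr17 (-5.87), a receptor of committed precursors, Ugt8a (-4.20), Cldn11 (-4.35) and Cnp (-2.11) were lower too. Olig2, the lineage factor that cultured stem cells also express, was at 740, 700 and 304 CPM against 479, 510 and 455 CPM. Its dates overlapped (0.25 ± 0.29, adjusted p = 0.612), as did those of Olig1 (0.22, adjusted p = 0.697).

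Of 26 neuroblast and neuron genes measured among 33 listed, 11 were lower on 30 August and 1 was higher (median -0.84). Beside this, 6.93% of all genes tested were lower and 4.74% higher. Without the sh902 pair 2 of the 26 were called lower. Doublecortin, Dcx, a microtubule protein of migrating neuroblasts, was at 1.47, 0.431 and 0.814 CPM against 105, 20.3 and 7.58 CPM (-4.98 ± 0.71, adjusted p = 0.0268). Gad2, an enzyme of GABA synthesis, was at 0.0376, 0.287 and 0.171 CPM against 8.19, 10.9 and 12.9 CPM (-5.97 ± 0.51, adjusted p = 0.00315). Dcx was highest in the shNT library of 3 September and Gad2 in the sh902 library of that date, and neither gene's dates overlapped. Gad1 (-2.76), the RNA-binding protein gene Elavl4 (-3.67), the progenitor factor Insm1 (-2.68) and Tubb3 (-3.29), which overlaps a readthrough model, were lower. The neurofilament gene Nefl was the 1 higher member, at 0.263, 11.7 and 2.78 CPM against 0.0388, 0.811 and 0 CPM, and its dates overlapped (4.45 ± 0.74, adjusted p = 0.019).

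The stem cell list moved in both directions, with 3 of 25 radial glia and stem cell genes higher and 5 lower (median -0.44). Shares over all genes tested were 4.74% higher and 6.93% lower. Without the sh902 pair 1 of the 25 was higher and 3 lower. Nes, the intermediate filament nestin, was at 778, 1464 and 1973 CPM on 30 August and at 116, 600 and 541 CPM on 3 September (2.04 ± 0.30, adjusted p = 0.0134). Tnc, the matrix protein tenascin C of the stem cell niche, was at 2113, 4994 and 4131 CPM against 137, 506 and 511 CPM (3.50 ± 0.27, adjusted p = 0.00227). Both genes were lowest with shNT at each date, and every 30 August value lay above every 3 September value. Vim was higher (0.90 ± 0.19, adjusted p = 0.035) with overlapping dates. Sox2 was lower, at 173, 191 and 167 CPM against 352, 336 and 264 CPM (-0.76 ± 0.17, adjusted p = 0.0388); an overlapping transcript, Sox2ot, lies on the same strand. Prom1, the membrane protein prominin, was lower (-4.08 ± 0.28, adjusted p = 0.00205).

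**Figure D2:**
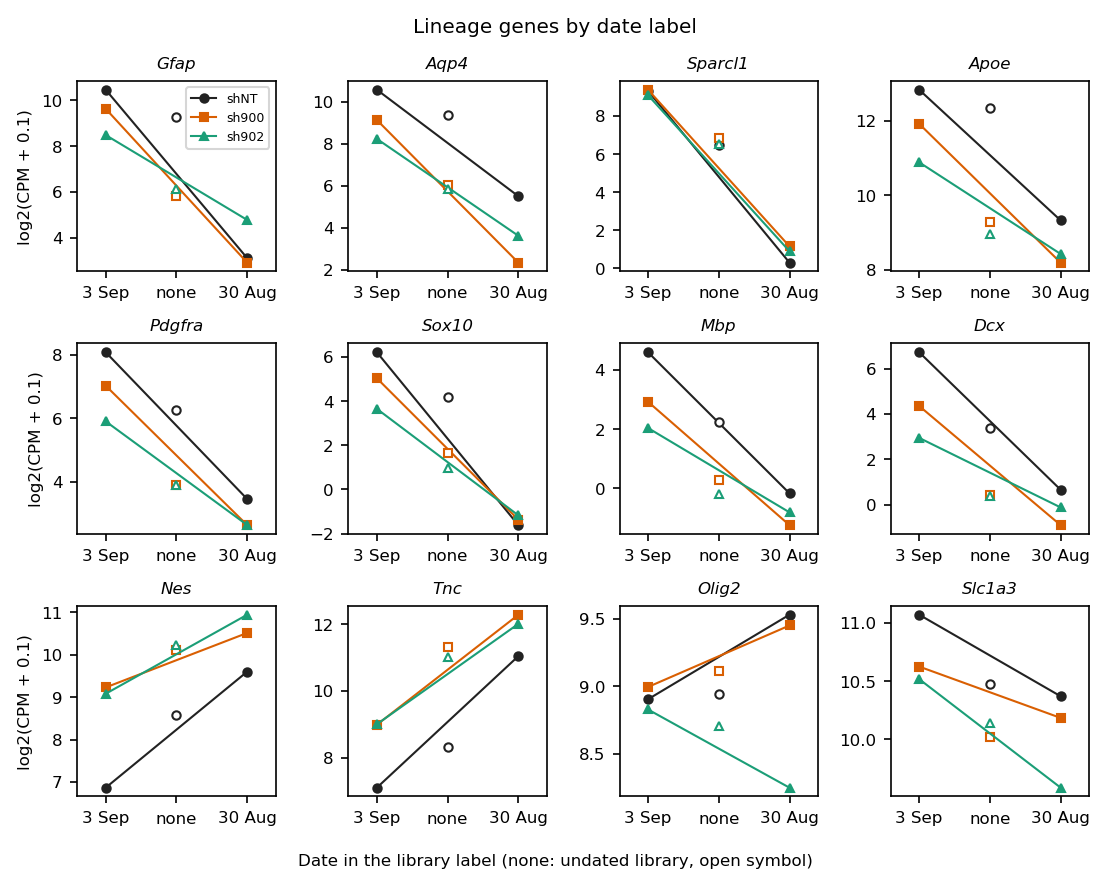
Levels of 12 lineage and stem cell genes in the 9 libraries as log2(CPM + 0.1), drawn as in the plot of regional genes. The astrocyte, oligodendrocyte and neuronal genes from Gfap to Dcx slope down to 30 August, Nes and Tnc slope up, and Olig2 crosses, from 455 to 510 CPM on 3 September to 304 to 740 CPM on 30 August.

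Signalling genes differed gene by gene. Over all genes tested 6.93% were called lower and 4.74% higher on 30 August. In the Notch pathway, in which ligands on 1 cell activate receptors on its neighbour and hold progenitors undifferentiated, 6 of 20 genes were lower and 1 higher (median -0.18), with 1 lower without the sh902 pair. The ligand genes Dll3 (-3.01 ± 0.17, adjusted p = 0.00164), Dll1 (-1.31 ± 0.17, adjusted p = 0.00931) and Dll4 (-3.05) were lower, the ligand gene Jag1 was higher (1.34), and the targets Hey1 (-0.93) and Hey2 (-1.63) were lower. Dll3 was at 22.3, 6.57 and 5.57 CPM against 181, 64.8 and 42.7 CPM. The target gene Hes5 was not called over the pairs (-3.46 ± 0.69, adjusted p = 0.0639). Of 12 hedgehog genes, 3 were lower, namely the ligand Shh, the receptor Ptch1 (-1.16) and the inhibitor Hhip (-3.08), and the coreceptor Cdon was higher (1.17). Without the sh902 pair edgeR called 0 of the 12, with 5 at an unadjusted p under 0.05. The effector Gli1 was not called (0.62, adjusted p = 0.578).

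Of 21 genes of BMP signalling and the Id family, 3 were lower and 1 higher, beside 6.93% and 4.74% of all genes tested. The receptor Bmpr1b (-1.49), the ligand Bmp7 (-1.61) and Id4 were lower and the pseudoreceptor Bambi was higher (1.55). Without the sh902 pair 1 was lower. Feedback genes of ERK signalling, which FGF and EGF activate, had 4 of 18 higher and 1 lower (median 1.25), and without the sh902 pair 0 higher and 1 lower by edgeR, with 9 at an unadjusted p under 0.05. Spred3 (1.25) and Il17rd (1.15), both inhibitors of the pathway, were among the higher. Fos, an early target, was lower, at 69.8, 56.5 and 98.1 CPM against 313, 451 and 349 CPM (-2.25 ± 0.25, adjusted p = 0.00583). Among 20 immediate early genes, 3 were higher and 4 lower (median 0.17; 1 and 3 without the sh902 pair), the lower ones being Fos, Fosb (-2.99), Ier2 (-1.79) and Junb (-1.75).

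Of 29 targets of p53, the stress-activated transcription factor, measured among 30 listed, 14 were higher on 30 August and 2 lower (median 0.89). Among all genes tested 4.74% were higher and 6.93% lower, so the share of lower targets was near that of all genes. Without the sh902 pair 0 were called in either direction by edgeR, with 20 at an unadjusted p under 0.05. Mdm2, the ubiquitin ligase that restrains p53, was at 137, 294 and 296 CPM against 75.8, 101 and 102 CPM (1.39 ± 0.21, adjusted p = 0.0131). Cdkn1a, the cell cycle inhibitor p21, was at 409, 850 and 944 CPM against 91.9, 362 and 521 CPM (1.49 ± 0.29, adjusted p = 0.0268). Mdm2 was higher in every 30 August library than in any of 3 September, whereas the dates overlapped for Cdkn1a, with shNT lowest at both. Plk2 (1.46), Perp (1.30), Ccng1 (1.33), Phlda3 (1.23) and Bax (0.88) were higher, and Sesn1 (-1) and Btg2 (-1.34) lower.

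Interferon response genes were lower on 30 August: 12 of 30 measured among 31 listed were called lower and 0 higher (median -1.58). Among all genes tested 6.93% were called lower and 4.74% higher. Without the sh902 pair 1 of the 30 was called lower. The list median was -0.73 in the shNT pair, -2.34 in the sh900 pair and -1.71 in the sh902 pair. Summed levels were 447, 474 and 589 CPM on 30 August, 553, 1932 and 1494 CPM on 3 September, and 1919, 3127 and 2141 CPM in the undated libraries. The shNT library of 3 September was thus close to 30 August in its sum. Fitted apart, 15 of the 30 genes were called lower with the Phf2 hairpins, against 2.36% of all genes, and 1 in the shNT pair, against 1.01%. The shNT value compares 1 library with 1, and the difference between the 2 date differences was called by edgeR for 0 of the 30 genes in either direction, against 0.892% of all genes tested that were lower with the Phf2 hairpins and 0% that were higher. DESeq2 and limma-voom also called 0 of the 30, and 9, 12 and 8 had an unadjusted p under 0.05 by edgeR, DESeq2 and limma-voom. Ifi27 (chromosome 12, 103434211 to 103440239, plus strand) was at 7.03, 17.7 and 18.1 CPM against 42.7, 146 and 134 CPM (-2.77 ± 0.18, adjusted p = 0.00183). The signalling genes Stat2 (-1.22) and Irf9 (-1.79), parts of the interferon transcription complex, and Irf7 (-2.22) were lower. Ddx58, the viral RNA sensor RIG-I, was at 17.9, 30.5 and 27.0 CPM against 32.3, 82.5 and 62.5 CPM (-1.09 ± 0.18, adjusted p = 0.0171).

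Promoter windows of 2 of these genes are shown because interferon acts through a short element there. Windows run from 250 bases before to 50 bases after the annotated start and come from RefSeq on GRCm38.p6, read 5′ to 3′ on the gene's strand; 26 of the 31 listed genes had 1 or more windows. The core of the interferon response element, TTTC, any 2 bases and TTTC, was searched on both strands and was picked after the values were seen. It was found in 12 of 31 windows of the list (38.7%) against 3.44% of all promoter windows and 2.95% of windows of genes tested. The Ddx58 match lies after the annotated start. A stretch of the window after the start was found in a GENCODE transcript for Ddx58 but not for Stat2, so the Stat2 start is less certain. Capitals mark the matches, which begin at base 253 of the Ddx58 window (chr4:40239776-40240075, minus strand) and base 29 of the Stat2 window (chr10:128270248-128270547, plus strand). A match is a description of letters and does not show binding.
Ddx58: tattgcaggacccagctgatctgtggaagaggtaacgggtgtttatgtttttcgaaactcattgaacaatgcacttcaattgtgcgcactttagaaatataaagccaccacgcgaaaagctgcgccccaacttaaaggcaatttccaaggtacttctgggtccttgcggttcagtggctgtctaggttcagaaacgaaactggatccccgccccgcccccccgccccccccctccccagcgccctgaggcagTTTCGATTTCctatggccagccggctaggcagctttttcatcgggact
Stat2: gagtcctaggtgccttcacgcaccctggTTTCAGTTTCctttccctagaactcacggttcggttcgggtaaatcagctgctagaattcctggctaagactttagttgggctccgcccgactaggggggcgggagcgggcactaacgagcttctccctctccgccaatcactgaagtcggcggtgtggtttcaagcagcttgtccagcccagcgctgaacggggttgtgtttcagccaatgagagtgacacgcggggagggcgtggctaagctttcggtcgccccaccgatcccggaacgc

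**Figure D3:**
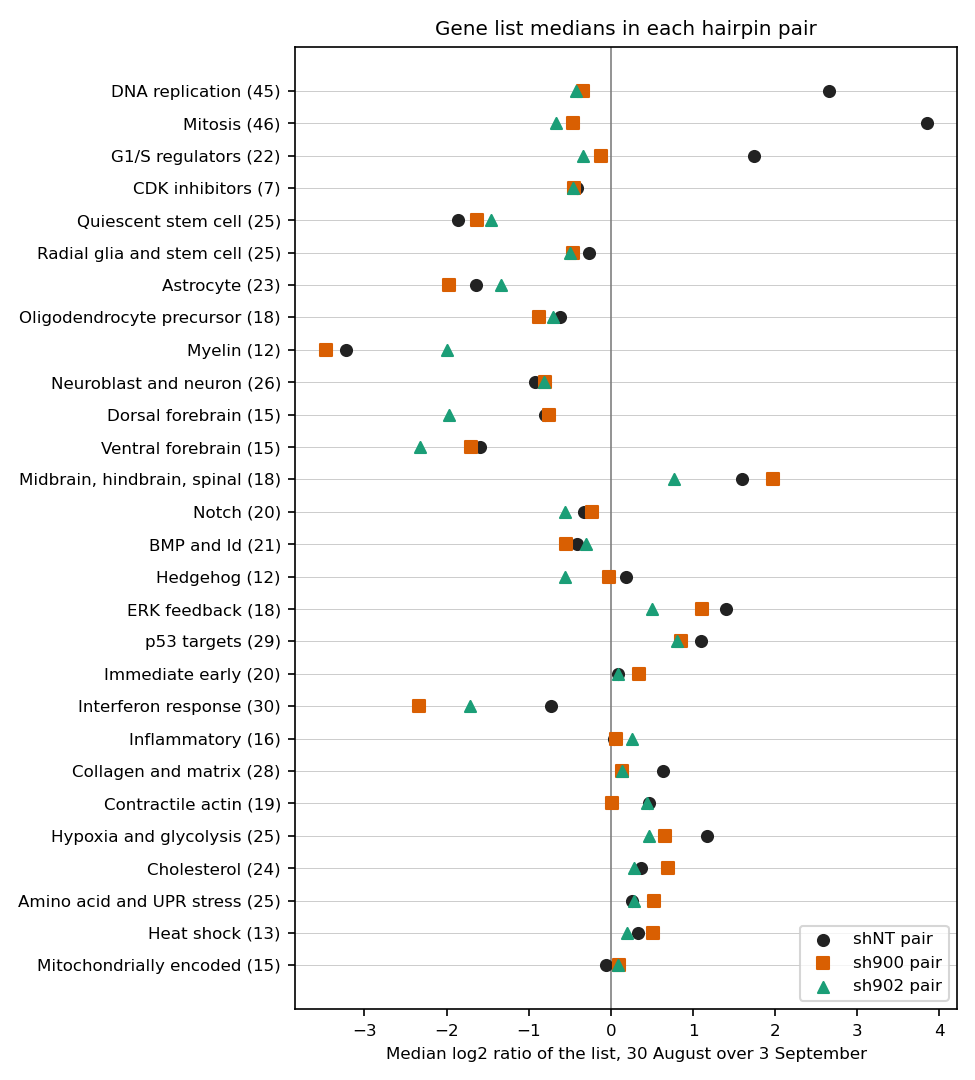
Median log2 ratio of 30 August over 3 September for 28 gene lists in each hairpin pair, with the number of genes measured in brackets. The shNT pair stands away from both Phf2 hairpin pairs for DNA replication and mitosis (3.85 against -0.47 and -0.67 for mitosis), and the astrocyte, myelin, midbrain and p53 lists have the same sign in all 3 pairs.

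Genes of cell division were not called over the 3 pairs, and the pairs lay in opposite directions. Of 46 mitosis genes, edgeR called 0 over the pairs, DESeq2 and limma-voom 0, and 0 had an unadjusted p under 0.05. Without the shNT pair 13 were called lower on 30 August and 0 higher. That fit called 1589 lower and 1302 higher of all 16798 genes. The list median was 3.85 in the shNT pair, -0.47 in the sh900 pair and -0.67 in the sh902 pair. Of 45 DNA replication genes edgeR called 0, with 1 at an unadjusted p under 0.05 and 2 called higher by DESeq2. Without the shNT pair 3 of the 45 were lower, a share not above that of all genes in that fit. The pair medians of the replication list were 2.65, -0.33 and -0.43. The median over all genes was 0.00, -0.06 and -0.03 in the same order. Summed levels of the mitosis list were 6896, 1790 and 2323 CPM with shNT, sh900 and sh902 on 30 August and 564, 2775 and 3753 CPM on 3 September. The shNT culture was thus the highest of 30 August and the lowest of 3 September. The undated libraries were at 2613, 3267 and 3974 CPM.

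Mki67, the proliferation marker Ki-67 (chromosome 7, 135689784 to 135716361, minus strand), was at 849, 176 and 299 CPM on 30 August and at 61.2, 343 and 472 CPM on 3 September. Over the pairs its difference was 0.53 ± 1.35 (adjusted p = 0.834). In a fit with separate date differences for shNT, 1 library a date and assumed to vary like the hairpin libraries, and for the Phf2 hairpins, 2 libraries a date, it was 3.86 with shNT (adjusted p = 0.0209) and -0.71 with the Phf2 hairpins (adjusted p = 0.281). The difference between these, Phf2 hairpins less shNT, was -4.57 ± 0.57 (adjusted p = 0.0351). Top2a, the topoisomerase that untangles mitotic chromosomes, was at 663, 149 and 193 CPM against 51.5, 269 and 357 CPM, with a difference between the date differences of -4.55 ± 0.46 (adjusted p = 0.0312). Mcm2, a subunit of the replicative helicase, was at 195, 61.3 and 79.1 CPM against 21.6, 74.5 and 113 CPM (adjusted p = 0.047). In each gene the shNT library was above both hairpin libraries on 30 August and below both on 3 September.

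This difference between date differences was called for 150 genes, all lower with the Phf2 hairpins than with shNT (0.892% of genes tested), and for 0 in the other direction (0%). The shNT side is 1 library at each date, so a response to the hairpin and a single deviating shNT culture cannot be told apart. At an unadjusted p under 0.05 there were 1212 genes in either direction, DESeq2 called 32 in the other direction and limma-voom 0. With an sh902 term, which pairs each Phf2 hairpin across the dates, 740 were lower and 116 higher. The fit without that term treats sh900 and sh902 as replicates of each other. Of the 150, 40 were mitosis genes, 11 DNA replication genes and 3 regulators of the G1 to S transition, 54 on any of these lists. In 149 of the 150 the shNT pair was higher on 30 August, against 50.1% of all genes, and in 135 both Phf2 hairpin pairs were lower. The 150 were selected by this difference, which favours such signs. Without the sh902 library of 3 September 0 were called, and without the sh900 or sh902 library of 30 August 635 and 659. Hmmr, a protein of the mitotic spindle, was at 142, 39.3 and 41.6 CPM against 5.08, 55.1 and 83.6 CPM. Of the G1 regulators, Cdk6 was lower in all pairs, at 5.00, 3.12 and 2.23 CPM against 64.0, 48.4 and 54.2 CPM (-3.99 ± 0.26, adjusted p = 0.00204). Mycn was lower (-2.28 ± 0.23), the cyclin gene Ccnd3 was higher (0.68 ± 0.17), and the inhibitor gene Cdkn1c was lower (-3.13 ± 0.46). Cdk6 was thus lower in the shNT pair, in which mitosis genes were higher.

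**Figure D4:**
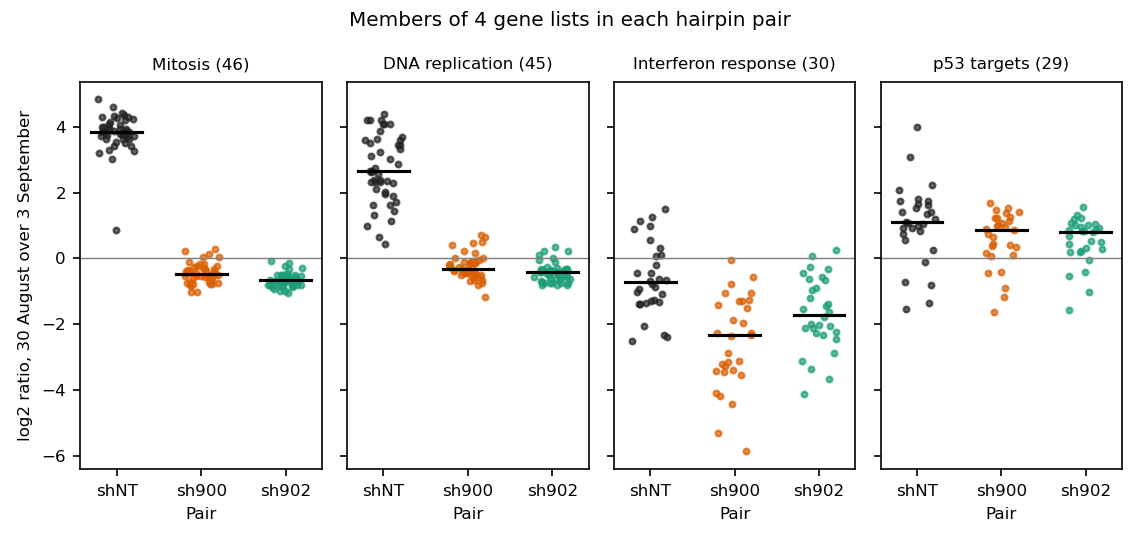
Log2 ratio of 30 August over 3 September for each measured member of 4 lists, by hairpin pair; each point is 1 gene and the bar is the median. Mitosis and DNA replication genes lie above 0 in the shNT pair and mostly below 0 in the sh900 and sh902 pairs, interferon genes lie lowest in the sh900 pair, and the median of p53 targets lies above 0 in all 3.

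Promoter windows of 2 genes called for the interaction are shown because certain motifs were frequent in windows of the mitosis or the replication list. TTTGAA, the core of the cell cycle homology region, was found on either strand in 33 of 43 windows of the mitosis list (76.7%), which cover 40 of its 46 genes, against 17.9% of all promoter windows and 11.9% of windows of genes tested. It was in 12.2% of windows of the replication list. CCAAT was in 76.7% and 58.5% of mitosis and replication windows against 37.4% of all. The E2F motifs TTTCCCGC and TTTGGCGC were each in 14.6% of replication windows and 0% of mitosis windows, against 1.07% and 0.514% of all. None of the motifs contains another, and a window can be counted for several. The Hmmr match lies after the annotated start. A stretch of the window after the start was found in a GENCODE transcript for Top2a but not for Hmmr, so the Hmmr start is less certain. Capitals mark TTTGAA or its reverse complement, beginning at bases 72 and 228 of the Top2a window (chr11:99024140-99024439, minus strand) and at base 259 of the Hmmr window (chr11:40733388-40733687, minus strand).
Top2a: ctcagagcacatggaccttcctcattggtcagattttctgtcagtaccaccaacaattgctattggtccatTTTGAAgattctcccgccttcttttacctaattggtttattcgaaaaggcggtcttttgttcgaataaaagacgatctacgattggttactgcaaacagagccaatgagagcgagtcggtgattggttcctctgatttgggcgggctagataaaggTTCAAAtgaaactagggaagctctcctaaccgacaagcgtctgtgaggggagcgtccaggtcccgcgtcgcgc
Hmmr: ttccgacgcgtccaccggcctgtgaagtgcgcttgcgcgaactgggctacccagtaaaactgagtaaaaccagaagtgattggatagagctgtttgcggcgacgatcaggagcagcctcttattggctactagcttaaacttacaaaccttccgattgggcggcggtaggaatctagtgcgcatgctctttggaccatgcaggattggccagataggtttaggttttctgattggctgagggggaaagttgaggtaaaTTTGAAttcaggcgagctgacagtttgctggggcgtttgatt

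Date differences with a Phf2 hairpin and with shNT were also read from libraries that share none. With the Phf2 hairpins, 189 genes (1.12%) were called higher and 397 (2.36%) lower on 30 August. Of the 189, 180 (95.2%) were higher in the shNT pair too, 151 of them at least 2-fold, against 50.1% and 13.3% of all genes. Of the 397, 384 (96.7%) were lower in the shNT pair, 330 at least 2-fold, against 49.9% and 14.2% of all genes. In the shNT pair, 417 genes (2.48%) were called higher and 169 (1.01%) lower. Of the 169, 165 (97.6%) were lower in the mean of the hairpin pairs, but of the 417 only 176 (42.2%) were higher there, against 46.8% of all genes. Over all 16807 genes, pair ratios correlated at 0.636 between shNT and sh900, 0.487 between shNT and sh902 and 0.689 between sh900 and sh902, across genes that are not independent and from separate libraries. Emx2 was called lower with the Phf2 hairpins and with shNT (-3.39 and -3.34), as was Sparcl1 (-8.20 and -9.08).

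**Figure D5:**
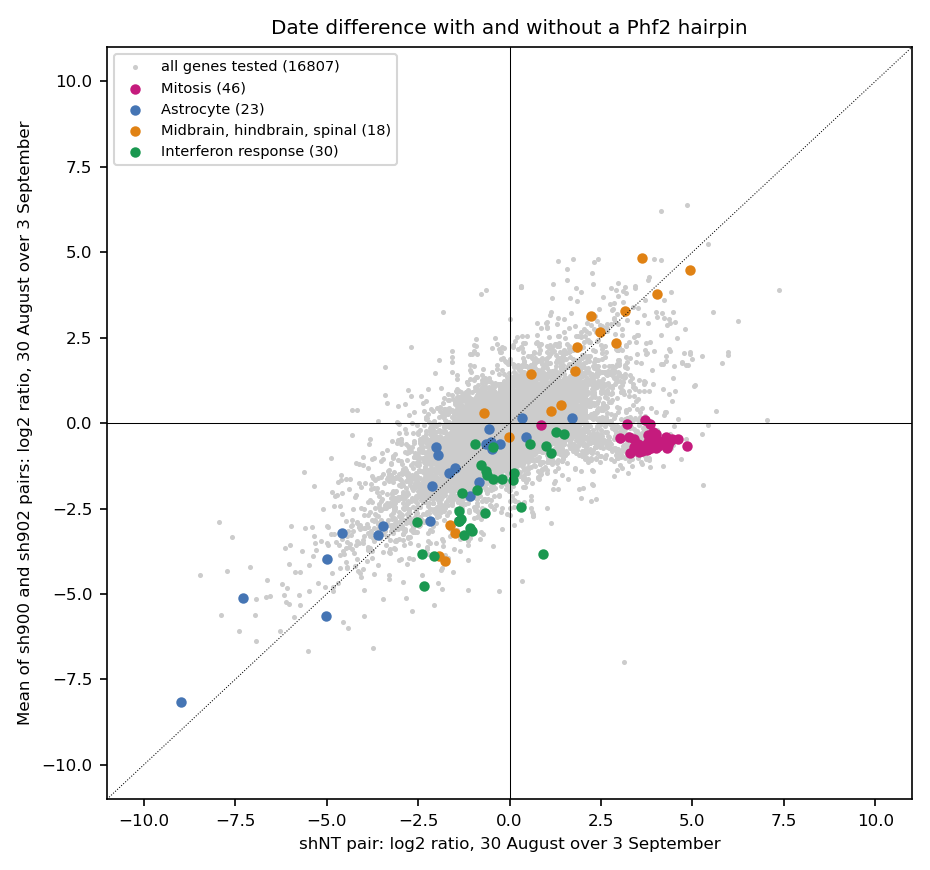
Log2 ratio of 30 August over 3 September in the shNT pair (x axis) against the mean of the sh900 and sh902 pairs (y axis), 1 point for each of 16807 genes, with 4 lists in colour and a dotted line of equal values. Astrocyte and midbrain, hindbrain and spinal cord genes lie along the line, while mitosis genes lie to the right of it, at a median of 3.85 in the shNT pair.

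Further gene groups differed in part, and their counts stand beside 4.74% of all genes tested called higher and 6.93% called lower. Of 28 collagen and matrix genes 7 were higher and 7 lower (median 0.46). The laminin gene Lamb1 was at 270, 450 and 463 CPM against 14.9, 38.0 and 41.2 CPM (3.82 ± 0.22, adjusted p = 0.00164), and Lama4 (2.91), Col5a1 (1.86) and Col6a1 (2.4) were higher. The fibrillar collagen genes Col1a2 (-4.78) and Col3a1 (-5.24) and the matrix gene Postn (-6.52) were lower. Of 25 glycolysis and hypoxia genes 5 were higher and 0 lower (median 0.78), with the glucose transporter Slc2a1 at 61.2, 54.1 and 38.3 CPM against 15.3, 15.2 and 21.2 CPM (1.64 ± 0.28, adjusted p = 0.0197). Of 16 inflammatory genes measured among 25, 4 were higher and 0 lower (median 0.04). These were Ccl2 (4.07), Ccl7 (3.10), Lif (2.23) and Nfkb2 (1.27), and Ccl2 was highest in the sh900 library of 30 August at 62.8 CPM. Of 24 cholesterol synthesis genes 3 were higher, of 25 genes of amino acid and unfolded protein stress 4 were higher and 1 lower, and of 19 contractile genes 5 were higher and 2 lower. Without the sh902 pair, 3 matrix genes were higher and 1 lower, 2 glycolysis, 1 inflammatory and 1 amino acid stress gene were higher, and edgeR called 0 cholesterol and 0 contractile genes, with 10 and 11 at an unadjusted p under 0.05. EdgeR called 0 of 13 heat shock genes and 0 of 15 mitochondrially encoded genes, with 5 and 3 at an unadjusted p under 0.05, and DESeq2 called 5 and 4.

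Genes with the largest differences outside these groups included Hmga2, a chromatin protein of embryonic progenitors, at 17.8, 355 and 109 CPM on 30 August against 1.13, 8.38 and 6.46 CPM (4.60 ± 0.39, adjusted p = 0.00547). Aldh1a3, an enzyme of retinoic acid synthesis, was at 9.13, 65.2 and 67.4 CPM against 0.466, 1.62 and 3.79 CPM (4.68 ± 0.33, adjusted p = 0.00211). Both were lowest with shNT within each date. Exosc6, an RNA exosome subunit (chromosome 8, 111056339 to 111057664, plus strand), had 34, 207 and 96 counts on 30 August and 0 in every 3 September library, which is at least 11-fold, 64.2-fold and 31.8-fold higher against a floor of 3 counts per library. It lies within the model of Aars on the same strand, so its share of reads is uncertain. Scg5 (-7.60), a secretory pathway chaperone, and Thy1 (-6.68), a surface glycoprotein, were among the 12 lowest.

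Markers of other cell types were read from whole lists, beside 4.74% of all genes tested called higher and 6.93% called lower. Of 10 meningeal fibroblast genes measured among 14, 6 were lower on 30 August and 1 higher (median -2.85; 1 lower without the sh902 pair), and the summed level of the list was 61.7 to 78.2 CPM on 30 August against 146 to 347 CPM on 3 September. Dcn and Lum had 0 counts with shNT and sh900 on 30 August and 0.819 to 1.63 CPM on 3 September. The fibroblast list includes Pdgfra, named above for the oligodendrocyte lineage. Pdgfra alone stood at 6.10 to 10.9 CPM on 30 August and 59.8 to 271 CPM on 3 September. Much of the difference in these sums thus came from that gene. The collagen genes of the fibroblast list also stand on the matrix list, and the list's share in the lower collagen values was not tested. Of 8 neural crest and Schwann cell genes measured among 12, 2 were lower, among them Sox10, which the oligodendrocyte lineage shares, with sums of 34.5 to 66.3 CPM against 88.6 to 307 CPM. Endothelial sums were 5.34 to 14.8 CPM over all dated libraries and 1 of 5 genes measured was higher, Flt1 (3.83). Choroid plexus sums were 10.8 to 18.2 CPM and microglial sums 1.85 to 4.93 CPM, with 3 to 10 of 14 microglial genes at 0. Mural cell sums were 192 to 339 CPM. Of these, Notch3 alone held 138 to 221 CPM, while Rgs5 was at 1.94 to 4.45 CPM. Of the 9 genes measured on the choroid plexus, microglial and mural lists 1, Folr1, was lower (-2.61). Of 16 ependymal genes measured among 26, 3 dynein genes were lower (median -0.54), and 0 without the sh902 pair by edgeR, with 10 at an unadjusted p under 0.05.

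The undated libraries were set on a log2 scale on which 0 is the 3 September library and 1 the 30 August library of the same hairpin. Over 795 of the genes higher on 30 August the median position was 0.297 with shNT, 0.598 with sh900 and 0.556 with sh902, and over the 1164 lower genes it was 0.211, 0.550 and 0.579. The undated shNT library was thus nearer to 3 September for both sets, and the undated hairpin libraries lay about midway. En2 was nearer to 30 August with all 3 hairpins, at 49.3, 78.3 and 52.2 CPM, while Gfap was near 3 September with shNT, at 621, 57.1 and 69.2 CPM.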

How the data were processed

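The authors deposited estimated counts of 54232 genes in 9 RNA-seq libraries. The submitters' processing notes name FastQC, cutadapt, Trimmomatic 0.36, STAR 2.5.0a, RSEM and GRCm38 without giving an order, while the annotation release, counting settings and strandedness were not given in any source used here. RSEM shares reads that fit several genes by a model, so values of paralogs and of overlapping or antisense genes are uncertain. The deposited estimated counts were whole numbers. Symbols came from GENCODE M21 (54079 identifiers matched, 153 did not).

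In R 4.3.3, edgeR 4.0.16's robust quasi-likelihood F test with TMM factors and its default expression filter was fitted to the 6 dated libraries with date and hairpin terms (2 residual degrees of freedom), and again with 4 means, shNT or Phf2 hairpin at each date. P-values were adjusted over all 16807 genes. The pairing rests on the hairpin in each label. Log2 ratios of pairs used a prior count of 2. The members, the 36 gene lists and the tests were chosen with earlier results of these data known. Named genes are a panel of 29, 12 called genes in each direction, chosen by size of difference at a mean of at least 1 CPM, up to 4 called members of each list, and the 6 lowest called for the interaction; further list members were named after their values were seen. Lists were described by counts and medians, with no set test. Alternatives were DESeq2 1.42.0, limma-voom (limma 3.58.1), RLE factors, library size alone, other filters, no hairpin term, all 9 libraries, a minimum fold and each library or pair left out. Scripts were tested on simulated data. A few genes are not reported here.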

Additional observations from a re-analysis of the deposited data

Results flagged for a closer look

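For 11 genes the date difference with the Phf2 hairpins was called as different from that with shNT, in a fit whose spread comes from the sh900 and sh902 libraries alone (edgeR's quasi-likelihood test with Benjamini-Hochberg adjustment over 16807 genes, adjusted p from 0.0312 to 0.0479). The values are log2 date differences with the Phf2 hairpins less those with shNT. They were -4.57 for Mki67, -4.55 for Top2a and -3.58 for Mcm2, a helicase subunit. Anln and Spc25, which act in cytokinesis and at the kinetochore, were at -3.67 and -3.88. The 6 genes with the lowest values were Pkn3 (-6.18), Neurl1b (-5.78), Ankle1 (-5.60), Hmmr (-5.56), Pimreg (-5.31) and Cep55 (-5.18), of which Cep55 acts in the final step of cell division. In each of the 11 the shNT library was above both hairpin libraries on 30 August and below both on 3 September. The 11 were taken because this difference was called, which favours such a pattern. The shNT side is 1 library at each date, so a response to the hairpin and a single deviating shNT culture cannot be told apart, and all 11 lost the call without the sh902 library of 3 September.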

How the results depend on the processing

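Over the 3 pairs, 1960 genes were called. Counts were 5156 by DESeq2, 3744 with no filter, 3613 with all 9 libraries and 797 at a minimum of 1.5-fold, with 707 when the pairing by hairpin (replicate block) was left out. Without the sh900 pair 1 was called and without the sh902 pair 257; leaving out 1 library gave 1 to 2949. The share of higher calls was 40.6%, against 49.6% by DESeq2, 49.2% with all 9 libraries and 24.5% without the block. The Phf2 hairpin count of 586 was 1543 by DESeq2, 2188 with no filter, 2993 with an sh902 term (replicate block) and 105 to 2522 without 1 library. The shNT count, also 586, was 1622, 2128, 3066 and 482 to 2664 in that order. The interaction count of 150, all lower, was 476, 651, 856 (740 lower and 116 higher) and 0 to 659, with 89 by limma-voom and 95 at a filter of 1 CPM. In these 3 comparisons only Phf2 hairpin libraries were left out. List counts by other tools and without a pair were added after seeing the data. Genes of 1 direction in all pairs numbered 1248 at 2-fold, 2531 at 1.5-fold and 386 at 4-fold.

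Of 121 named genes called over the pairs, DESeq2, limma-voom and no filter kept 121, no replicate block 76, and no fit without the sh900 pair or the 3 September sh900 library kept any; none reversed. Top2a, not called over the pairs, reversed to -0.75, -0.79 and -0.76 without the shNT library of 30 August, that of 3 September or both; its 2 hairpin pairs are lower and its shNT pair is higher. With 2 residual degrees of freedom and 1 library for each hairpin and date, calls rest on moderated spread, and genes under about 1 CPM on few counts.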
